A study of Mus musculus with 8 samples.

Results

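The genes described here are the interferon-induced genes and the signal transducers and transcription factors behind them, the STAT and IRF factors and the interferon receptors. Their levels in Sox2-positive cells of mouse medulloblastomas were set against those in Sox2-negative cells of the same kind of tumour. Members were chosen by gene symbol, with earlier results of these data known. The symbols were Ifi followed by a digit, Ifih1, Ifit and Ifitm, the Irf factors, the Irf2-binding proteins, Isg, Oas and Gbp. The Stat factors, Mx1, Mx2, Irgm, Rsad2, Usp18, Ifnar, Ifngr and Bst2 were taken too. This gave 78 of the 22180 genes measured by a probe set with 1 gene symbol. RefSeq holds 91 symbols of this form, and the other 13 were not analysed here. A match of the symbol does not make a gene interferon-induced: Isg20l2 and the Irf2-binding proteins were counted because of their names.

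The mice were Patched1+/- of a CD1 background crossed to Sox2eGFP B6 parents, so every sample, Sox2-negative cells included, carried both alleles. All were irradiated at birth with 3 Gy and were over 70 days old when signs of a brain tumour appeared. Dissociated tumour cells were depleted of CD45+ (white blood) and Ter119+ (red blood) cells and sorted by eGFP. Each of 4 Sox2-positive and 4 Sox2-negative arrays held the RNA of a pool of 3 tumours, so the spread is that between pools. The pools are numbered 1 to 4 in each fraction. The sort rests on the reporter alone, so the Sox2-positive fraction holds every tumour cell type that carried eGFP.

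Type I interferons bind the receptor made of Ifnar1 and Ifnar2, and interferon gamma binds that of Ifngr1 and Ifngr2. Janus kinases on these receptors phosphorylate STAT proteins. Stat2 and Irf9 are parts of the factor ISGF3, which binds the interferon-stimulated response element (ISRE) in front of antiviral genes such as Isg15, the Ifit and Oas families and Mx1, while STAT dimers bind the gamma-activated site (GAS). Stat3 is mainly the effector of the interleukin 6 family of cytokines, and in the brain it is known for driving astrocyte genes such as Gfap.

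Values are log2 RMA values, 1 per probe set and array. A difference is the Sox2-positive minus the Sox2-negative mean on this log2 scale. Levels of different genes are not comparable on this array. A difference passed at a Benjamini-Hochberg adjusted p under 0.05 in limma, over all 22180 genes. Levels under 5.80 are called dim, this being the upper quartile of the mean levels of 1390 odorant and pheromone receptor genes, whose use is typical of sensory neurons of the nose. By this guide 50 of the 78 genes were dim in both fractions. Dim values may be largely background, so a fold between them is uncertain, and a real one would be understated. Sox2 itself was 3.13-fold higher in Sox2-positive cells (5.94 ± 0.34 against 4.30 ± 0.29, SD, n = 4 each; limma adjusted p = 2.53e-05). Fewer cells of a type and less RNA per cell cannot be told apart in these bulk samples.

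A few signalling genes and scattered effectors were higher in Sox2-positive cells, and few members of the large antiviral families passed. The genes higher were Stat3, Ifi27, Ifitm3, Ifnar2, Stat5b, Irgm1 and Ifit2, and those lower were Ifi205 and Ifitm2. That is 7 of 78 higher (8.97%) and 2 lower (2.56%), where 5.96% of all genes were higher and 2.52% lower (8.47% in either direction). The shares lie near those of all genes, so the count is no result about these genes. At an unadjusted p under 0.05 stood 19 of the 78 and 20.1% of all genes. Among the 27 of them whose mean lay at or above the dim guide 4 were higher (14.8%) and 1 lower, and of all genes that bright 9.72% were higher and 3.97% lower (13.7% either). The median difference of the 78 genes was 0.01, and that of all genes -0.03. For 56 of the 78 the difference was under 0.25 in size, and for 56 the 95% interval lay within 0.5 on either side of 0.

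**Figure D1:**
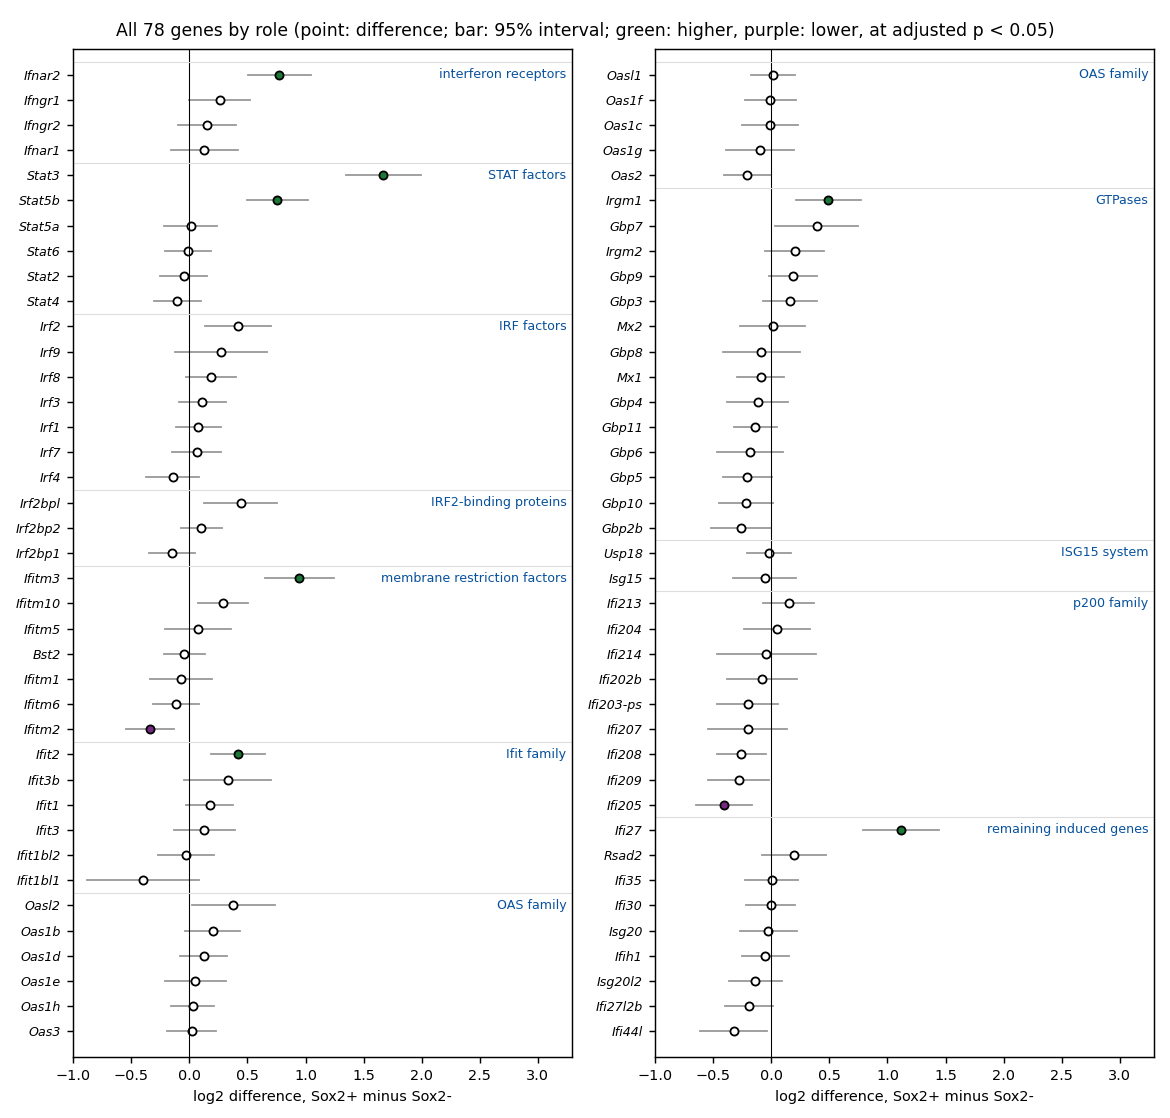
Log2 differences (Sox2-positive minus Sox2-negative, x axis) of all 78 genes, grouped by role, with 95% intervals from limma. The filled points are the 7 genes higher and the 2 lower at an adjusted p under 0.05, and Stat3 (1.67) lies farthest from 0.

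Promoter sequence is printed here for genes that differed and genes that did not, since the ISRE is the element through which interferon acts on many of them. RefSeq promoter windows of GRCm38.p6 (250 bases before to 50 after the start) were found for 61 of the 78 genes. The letters GAAA, any 2 bases and GAAA again, on either strand, the core of an ISRE, stood in a window of 28 of the 61 genes (45.9%) and of 3.99% of all genes with a window. The letters TTCNNNGAA, the core of a GAS, stood in 16 of the 61 (26.2%) and in 9.55% of all genes. The 120 bases before the start are shown 5′ to 3′ on the strand of the gene, with ISRE cores in capitals. Isg15 (chr4:156200819-156200938, minus strand) and Ifit1 (chr19:34640769-34640888, plus strand) did not pass the test. Irgm1 (chr11:48871421-48871540, minus strand) was higher and Ifitm2 (chr7:140955962-140956081, minus strand) lower in Sox2-positive cells. Stat3 (chr11:100939541-100939660, minus strand) and Ifnar2 (chr16:91372663-91372782, plus strand) were higher, and their stretches hold neither core. The window of Ifnar2 holds a GAS core (TTCCTGGAA) further out, with its first base at -214.
Isg15: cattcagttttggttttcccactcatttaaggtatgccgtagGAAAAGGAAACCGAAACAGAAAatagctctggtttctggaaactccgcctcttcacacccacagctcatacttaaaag
Ifit1: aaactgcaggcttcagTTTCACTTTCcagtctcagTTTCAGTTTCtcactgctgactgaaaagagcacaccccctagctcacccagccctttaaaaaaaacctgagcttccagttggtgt
Irgm1: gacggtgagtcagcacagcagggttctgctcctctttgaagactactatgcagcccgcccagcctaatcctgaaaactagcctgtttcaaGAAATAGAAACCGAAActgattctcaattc
Ifitm2: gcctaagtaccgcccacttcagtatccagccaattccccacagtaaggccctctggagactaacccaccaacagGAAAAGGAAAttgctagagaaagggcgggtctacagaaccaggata
Stat3: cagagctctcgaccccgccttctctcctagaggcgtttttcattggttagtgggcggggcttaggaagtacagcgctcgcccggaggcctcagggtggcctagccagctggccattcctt
Ifnar2: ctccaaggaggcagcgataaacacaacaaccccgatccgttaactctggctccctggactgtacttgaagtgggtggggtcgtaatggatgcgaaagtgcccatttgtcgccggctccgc

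The ISRE cores of Isg15 overlap, with first bases at -78, -72 and -66 from the start base, and those of Irgm1 at -30 and -24 overlap too. The 28 genes with an ISRE core had a median difference of -0.04, with 2 higher (7.14%) and 2 lower (7.14%). All 657 genes measured here with such a core had the same rounded median, with 7.76% higher and 3.04% lower, so the share of higher genes lay near that of other genes with the core. The 33 genes whose windows held none had a median of 0.06, with 4 higher and 0 lower by limma (9 at an unadjusted p under 0.05). The 16 genes with a GAS core had a median of 0.10. Of these 3 were higher (Ifnar2, Ifitm3 and Ifit2, 18.75%) and 0 lower (5 at an unadjusted p under 0.05). Of all 16990 genes measured here with a window 6.10% were higher and 2.46% lower, whatever cores they held. Shares over all genes with a GAS core, or over all genes without an ISRE core, are not given here. Of the 4 genes with an ISRE core that passed, Irgm1 and Ifitm3 were higher and Ifitm2 and Ifi205 lower. A match of letters is a description of the window and does not show that a factor binds there.

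Among the receptors, Ifnar2, the signalling chain of the type I interferon receptor, was 1.71-fold higher in Sox2-positive cells. Its log2 values in Sox2-positive pools 1 to 4 were 7.72, 8.37, 8.17 and 8.03, and in Sox2-negative pools 7.22, 7.48, 7.25 and 7.25. Every Sox2-positive pool lay above every Sox2-negative pool (log2 difference 0.77, SE 0.13, limma adjusted p = 0.0013). Its partner chain Ifnar1 ran from 7.13 to 7.54 in Sox2-positive and from 6.87 to 7.41 in Sox2-negative pools. Ifnar1 did not pass (log2 difference 0.13, 95% interval -0.16 to 0.42, adjusted p = 0.666). The chains of the interferon gamma receptor did not pass either, with log2 differences of 0.26 for Ifngr1 (adjusted p = 0.256) and 0.15 for Ifngr2 (adjusted p = 0.532), and their groups overlapped.

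Of the 6 STAT genes measured here, Stat3 and Stat5b were higher, and the other 4 did not pass. Stat3 had the largest difference of the 78 genes and was 3.18-fold higher. Its log2 values were 8.32, 9.07, 8.85 and 8.56 in Sox2-positive pools 1 to 4, and 7.07, 6.76, 7.21 and 7.07 in Sox2-negative pools. The groups were separated by over 1 log2 unit between the lowest Sox2-positive and the highest Sox2-negative pool (log2 difference 1.67, SE 0.15, limma adjusted p = 7.71e-06). Stat5b, which carries growth hormone and cytokine signals, stood at 6.17, 6.27, 6.49 and 6.22 in Sox2-positive and at 5.82, 5.40, 5.27 and 5.63 in Sox2-negative pools. It was 1.69-fold higher with groups apart (log2 difference 0.76, SE 0.12, limma adjusted p = 0.00119), and its Sox2-negative mean was dim.

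Stat5a, whose protein is closely related to that of Stat5b, was at 6.24 ± 0.08 and 6.23 ± 0.20 (mean log2 value ± SD, n = 4 each). Its log2 difference was 0.01 (95% interval -0.22 to 0.24, adjusted p = 0.976). Stat2, a part of ISGF3, was at 5.88 ± 0.12 and 5.93 ± 0.10 (log2 difference -0.05, 95% interval -0.25 to 0.15, adjusted p = 0.834). Stat4 and Stat6 were dim in both fractions, and the log2 differences of the 4 genes that did not pass ran from -0.11 to 0.01.

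**Figure D2:**
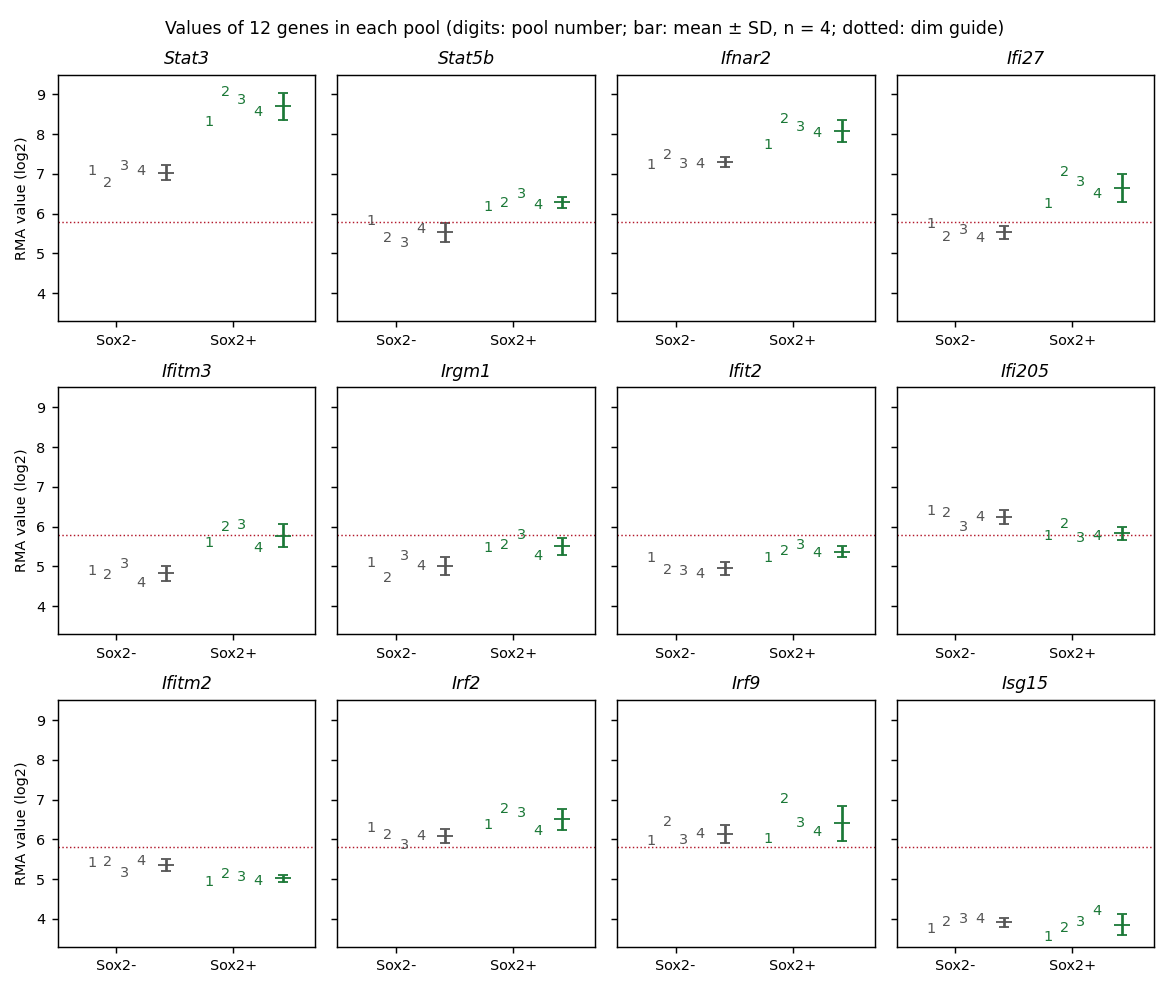
Log2 RMA values of 12 genes in each pool, with digits giving the pool number, bars the mean ± SD of 4 pools and the dotted line the dim guide at 5.80. Stat3, Stat5b, Ifnar2, Ifi27 and Ifitm3 show no overlap between the fractions, Irf9 and Irf2 reach highest in Sox2-positive pool 2, and Isg15 overlaps throughout.

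Neighbours on the chromosome were set beside these receptors and STAT genes, a choice made after their values were seen. Among protein-coding genes in RefSeq order the stretch runs Olig2, Olig1, Ifnar2, Il10rb, Ifnar1 and Ifngr2. Olig2 and Olig1, transcription factors of the oligodendrocyte lineage, had log2 differences of 3.45 (adjusted p = 4.03e-08) and 4.01 (adjusted p = 1.51e-09). The difference was smaller for Ifnar2 (0.77) and for Il10rb, a receptor chain of interleukin 10 and interferon lambda (0.42, adjusted p = 0.0575). It was 0.13 for Ifnar1 and 0.15 for Ifngr2, the members farthest from the Olig genes. With the replicate number as a block Il10rb passed (limma adjusted p = 0.0114). In the other stretch Stat5a (0.01) lies between Stat5b (0.76) and Stat3 (1.67), so the difference did not extend over all 3 adjacent STAT genes.

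**Figure D3:**
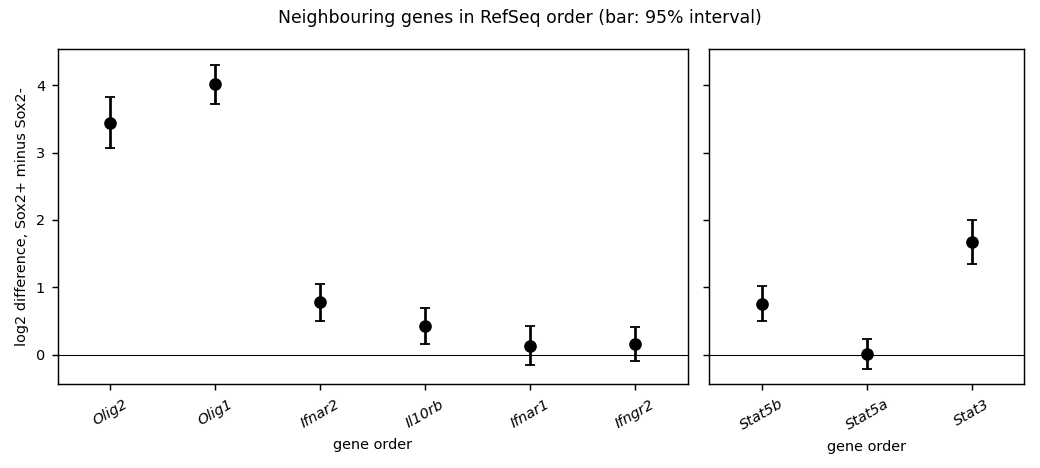
Log2 differences with 95% intervals (y axis) of neighbouring protein-coding genes in RefSeq order (x axis) around the interferon receptor genes and the Stat5b to Stat3 stretch. The values fall from 4.01 at Olig1 to 0.13 at Ifnar1, and Stat5a at 0.01 lies between 2 genes that were higher.

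None of the 7 IRF factors measured here passed in limma (0 at an adjusted p under 0.05, and 1, Irf2, at an unadjusted p under 0.05). Irf2, which competes with the activator Irf1 for the same sites, was closest. Its log2 values were 6.36, 6.77, 6.66 and 6.22 in Sox2-positive and 6.30, 6.11, 5.85 and 6.07 in Sox2-negative pools. Only Sox2-positive pool 4 lay below the highest Sox2-negative pool (log2 difference 0.42, SE 0.13, limma adjusted p = 0.0709). Irf9, the DNA-binding part of ISGF3, spread widely, with 6.0, 7.01, 6.42 and 6.19 in Sox2-positive pools and 5.96, 6.45, 5.99 and 6.15 in Sox2-negative pools. Pool 2 was highest in each fraction, the groups overlapped, and the log2 difference of 0.27 did not pass (95% interval -0.12 to 0.67, adjusted p = 0.456).

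Irf3, Irf7 and Irf1, the factors that switch on interferon genes or early interferon targets, had log2 differences of 0.11, 0.06 and 0.07. Irf4 and Irf8, known from blood cells, had -0.15 and 0.19, and the second probe set of Irf8 had -0.01. Irf1, Irf4 and Irf7 were dim in both fractions. Of the 3 Irf2-binding proteins, Irf2bpl had groups apart but did not pass (log2 difference 0.44, adjusted p = 0.0866). All genes had 7.63% with every Sox2-positive pool above every Sox2-negative one and 6.07% the other way round, and the 78 genes had 9 and 1.

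The Ifitm genes and Bst2 were grouped by symbol as membrane restriction factors, some of which block viral entry or release. The relatives Ifitm3 and Ifitm2 went in opposite directions, but the call of Ifitm2 was lost in 8 of 13 alternatives. Ifitm3, which stops enveloped viruses in endosomes, was at 5.58, 5.99, 6.04 and 5.47 in Sox2-positive and at 4.88, 4.77, 5.05 and 4.59 in Sox2-negative pools. The fractions did not overlap (1.93-fold, log2 difference 0.95, SE 0.14, limma adjusted p = 0.000536). Ifitm2 had 4.94, 5.12, 5.07 and 4.96 in Sox2-positive and 5.40, 5.44, 5.15 and 5.45 in Sox2-negative pools. It fell by 0.34 on the log2 scale (SE 0.10, limma adjusted p = 0.0425), with groups narrowly apart at Sox2-negative pool 3. Both genes were dim in both fractions, and probes of these near-identical genes may share signal.

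The call of Ifitm2 ended with quantile normalization and without any single pool other than Sox2-negative pool 3 (adjusted p = 0.0608 to 0.113). The letters of an ISRE core lie before the start of Ifitm2, and in Ifitm3 they lie just after it, with first bases at 2 and 19 (GAAAAGGAAA and GAAACCGAAA). Ifitm10 had groups apart without passing (log2 difference 0.29, adjusted p = 0.104). Bst2, the tetherin that holds budding viruses, was dim in both fractions, at 4.44 ± 0.07 and 4.48 ± 0.05 (limma adjusted p = 0.824).

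Of the cytosolic antiviral families, which bind foreign RNA, 1 of 6 Ifit genes and 0 of 11 OAS genes passed. Over all genes 8.47% passed in either direction, so this count is no result about these families. Ifit2 had 5.20, 5.39, 5.54 and 5.33 in Sox2-positive and 5.20, 4.90, 4.87 and 4.81 in Sox2-negative pools (1.34-fold, log2 difference 0.42, SE 0.11, limma adjusted p = 0.0279). Pool 1 of each fraction was nearly equal, and the call was lost on leaving out any of pools 2 to 4 of either fraction (adjusted p = 0.0565 to 0.0908). Ifit1 and Ifit3, relatives that were dim in neither fraction and were chosen here after their values were seen, had log2 differences of 0.17 (95% interval -0.03 to 0.38, adjusted p = 0.342) and 0.13 (-0.14 to 0.39, adjusted p = 0.63). Ifit3 and Ifit3b are near copies, whose probes may share signal.

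None of the 11 genes of the OAS family, some of which make the activator of RNase L, passed in limma (0 adjusted). At an unadjusted p under 0.05 stood 2 of them. Their differences ran from -0.21 to 0.38, and 9 were dim in both fractions. The largest was that of Oasl2, with Sox2-positive values of 5.43, 6.07, 5.61 and 5.60 and Sox2-negative values of 4.92, 5.48, 5.13 and 5.68 (log2 difference 0.38, 95% interval 0.02 to 0.74, adjusted p = 0.221). Isg15, a ubiquitin-like modifier and a standard readout of interferon, was at 3.86 ± 0.27 and 3.92 ± 0.12. It did not pass (log2 difference -0.06, 95% interval -0.33 to 0.21, limma adjusted p = 0.856). Both means lie under 4.16, the lower quartile of the odorant and pheromone receptor genes, so a difference in Isg15 could hardly show. Usp18, the protease that removes Isg15 and restrains Ifnar2, was at 6.62 ± 0.09 and 6.65 ± 0.09 (log2 difference -0.02, 95% interval -0.21 to 0.17, adjusted p = 0.924).

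Of 14 interferon-induced GTPases, some of which attack membranes of invading microbes, 1 was higher (7.14%) and 0 lower, beside 5.96% and 2.52% of all genes. Irgm1, a regulator of autophagy, was at 5.45, 5.53, 5.78 and 5.26 in Sox2-positive and at 5.08, 4.71, 5.26 and 5.01 in Sox2-negative pools. Sox2-positive pool 4 and Sox2-negative pool 3 almost touched (1.40-fold, log2 difference 0.49, SE 0.13, limma adjusted p = 0.0328). The call was lost with array weights, and on leaving out any of Sox2-positive pools 1, 2 and 3 and of Sox2-negative pools 1, 2 and 4 (adjusted p = 0.0524 to 0.103). The Gbp and Mx genes and Irgm2 had differences from -0.26 to 0.39, adjusted p from 0.209 to 0.983, and 11 of the 14 GTPase genes were dim in both fractions.

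Of the p200 family, which includes sensors of DNA, 1 of 9 genes was lower, and the median log2 difference was -0.20. Ifi205 stood at 5.75, 6.08, 5.70 and 5.77 in Sox2-positive and at 6.39, 6.34, 5.98 and 6.23 in Sox2-negative pools. Sox2-positive pool 2 lay above Sox2-negative pool 3, and the gene fell by 0.41 on the log2 scale (SE 0.11, limma adjusted p = 0.0411). Its call was lost on leaving out any of Sox2-positive pools 1, 3 and 4 and of Sox2-negative pools 1, 2 and 4 (adjusted p = 0.0837 to 0.13). These genes are near copies in a cluster, and 7 of the 9 were dim in both fractions.

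Ifi27, a small membrane protein of mitochondria, had the second largest difference of all 78 genes. Its log2 values were 6.25, 7.06, 6.81 and 6.50 in Sox2-positive and 5.74, 5.42, 5.59 and 5.39 in Sox2-negative pools, with no overlap. It was 2.17-fold higher (log2 difference 1.12, SE 0.15, limma adjusted p = 0.000293), against a dim Sox2-negative level. The other 8 of the remaining induced genes, among them Rsad2, Ifih1, Isg20, Ifi30, Ifi35 and Ifi44l, had differences from -0.33 to 0.20 and did not pass.

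Of a list of 81 other genes of the pathway, 10 were higher (12.3%) and 1 lower (1.23%), beside 5.96% and 2.52% of all genes. The list was written with earlier results of these data known, so these shares are a description and no test of the pathway. With the replicate number as a block 14 were higher and 3 lower, but the calls over all genes rose too, from 1879 to 2340 of 22180. Of 10 measured genes of cytokine receptors that signal through STATs 4 were higher, all of the interleukin 6 family. Lifr, the leukaemia inhibitory factor receptor, was at 6.71, 7.11, 7.20 and 6.50 in Sox2-positive and at 5.38, 5.56, 5.55 and 5.55 in Sox2-negative pools (2.59-fold, limma adjusted p = 2.5e-05). Il6st, the gp130 chain shared by the family, was at 7.5, 7.98, 7.94 and 7.58 against 6.97, 6.97, 6.47 and 6.61 (1.99-fold, adjusted p = 0.000421). Both genes had groups apart.

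The oncostatin M receptor gene Osmr was 1.80-fold higher (adjusted p = 0.000607), and Cntfr, the receptor of ciliary neurotrophic factor, was 1.67-fold higher (adjusted p = 0.0058). The receptor chain of interleukin 6 itself, Il6ra, did not pass (log2 difference 0.13). Of 16 Janus kinases and STAT inhibitors 1 was higher, Jak2, at 7.20, 7.99, 7.50 and 7.30 against 6.80, 7.04, 6.77 and 6.61 (1.62-fold, limma adjusted p = 0.011). Jak1 and Tyk2, the kinases of the type I receptor, had log2 differences of 0.03 (95% interval -0.19 to 0.25) and 0.02 (-0.17 to 0.21). Socs3, a feedback inhibitor that Stat3 induces, had 0.10 (-0.14 to 0.35, adjusted p = 0.681). Socs2 had -0.47 (limma adjusted p = 0.0644; 0.0082 with the replicate block).

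**Figure D4:**
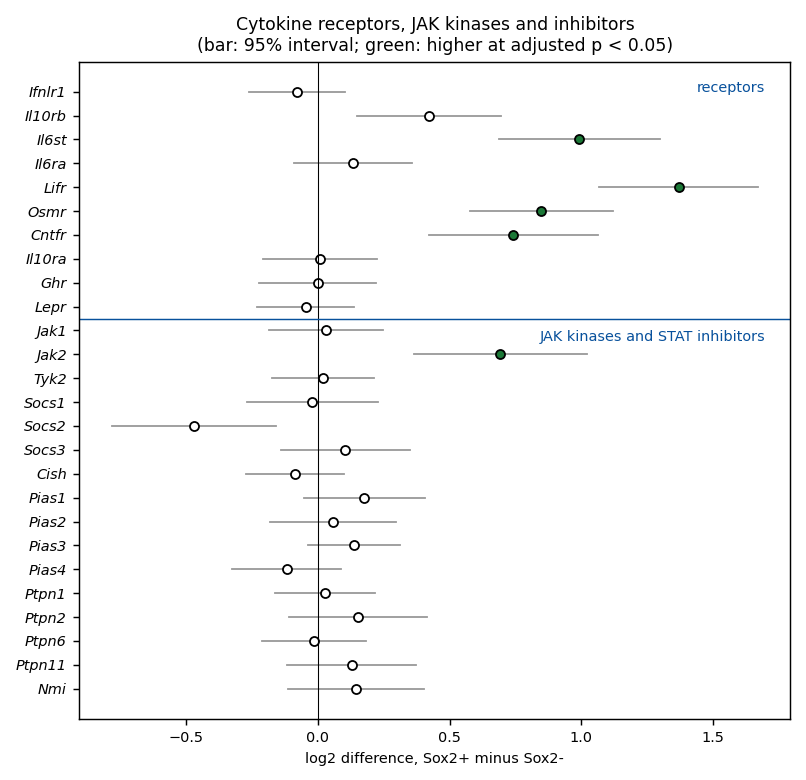
Log2 differences with 95% intervals (x axis) of 10 cytokine receptor genes and of 16 Janus kinase and STAT inhibitor genes. Lifr, Il6st, Osmr, Cntfr and Jak2, filled, were higher in Sox2-positive cells, while Jak1 and Socs3 lie near 0.

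Among 16 nucleic acid sensors and their signalling partners 2 were higher (12.5%), beside 5.96% of all genes. Tlr3, the endosomal sensor of double-stranded RNA, was at 5.54, 6.11, 6.44 and 5.62 against 4.61, 4.90, 4.89 and 4.92 (2.14-fold, limma adjusted p = 0.000844). Trim25, the ubiquitin ligase that activates RIG-I, was 1.61-fold higher at dim levels (adjusted p = 0.0124). With the replicate block Ddx58, the gene of RIG-I, passed too (log2 difference 0.43, adjusted p = 0.0112, against 0.112 without the block). So did Myd88, the adaptor of most Toll-like receptors (log2 difference 0.42, adjusted p = 0.0196, against 0.0655). Of 30 other interferon-induced effectors 3 were higher (10%) and 0 lower, beside 5.96% and 2.52% of all genes. The chemokine gene Cxcl10 was at 5.56, 5.57, 6.06 and 6.15 against 4.92, 4.85, 4.92 and 5.07, with groups apart (1.86-fold, adjusted p = 0.000668). The others were Cmpk2 (1.55-fold, adjusted p = 0.0149) and the antiviral zinc finger gene Zc3hav1 (1.36-fold, adjusted p = 0.0482). Parp12 passed with the replicate block (log2 difference 0.49, adjusted p = 0.021, against 0.0644 without it).

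Cmpk2 lost its call when Sox2-positive pool 2 (adjusted p = 0.0511) was dropped and when Sox2-negative pool 1 was (0.0543). Zc3hav1 lost it on leaving out any of Sox2-positive pools 2, 3 and 4 and of Sox2-negative pools 1 and 4 (0.0991 to 0.155). Of 9 interferon genes 1 was lower, Ifna1, at 8.62, 8.21, 8.28 and 8.57 in Sox2-positive and 8.97, 8.86, 8.67 and 8.86 in Sox2-negative pools. It fell by 0.42 on the log2 scale (SE 0.11, limma adjusted p = 0.0309). Interferon alpha genes are near copies, and the call was lost with quantile normalization and on leaving out any of Sox2-positive pools 2 and 3 and of Sox2-negative pools 1, 2 and 4 (0.0619 to 0.108). Ifna4 passed with the replicate block (log2 difference -0.35, adjusted p = 0.0264, against 0.0513 without it). Ifnb1 and Ifng were dim, at log2 differences of -0.14 and -0.00.

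Many of the 78 genes peaked in the same Sox2-positive pool. Pool 2 held the highest Sox2-positive value for 38 of the 78 genes (48.7%), against 23.6% of all genes. It did so for 14 of the 28 genes with an ISRE core, against 25.7% of all 657 genes with such a core. In Sox2-negative cells pool 4 held the highest value most often, for 28 of 78 (35.9%), against 26.8% of all genes. Among the 27 genes at or above the dim guide Sox2-positive pool 2 was again highest most often (15 of 27), against 26.6% of all genes that bright. In Sox2-negative cells it was pool 2 (10 of 27, 37.0%) and not pool 4 (7 of 27). Sox2-negative pool 2 was also highest for 38.7% of all genes that bright, so its share among the 27 lies near that of all such genes. Irf9 (7.01), Ifi27 (7.06), Oasl2 (6.07) and Gbp7 (6.66, named after its values were seen) were all highest in Sox2-positive pool 2. Genes of a family share sequence and are not independent, so these shares are a description. Without that pool Stat3, Stat5b, Ifnar2, Ifi27, Ifitm3 and Ifi205 still passed.

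**Figure D5:**
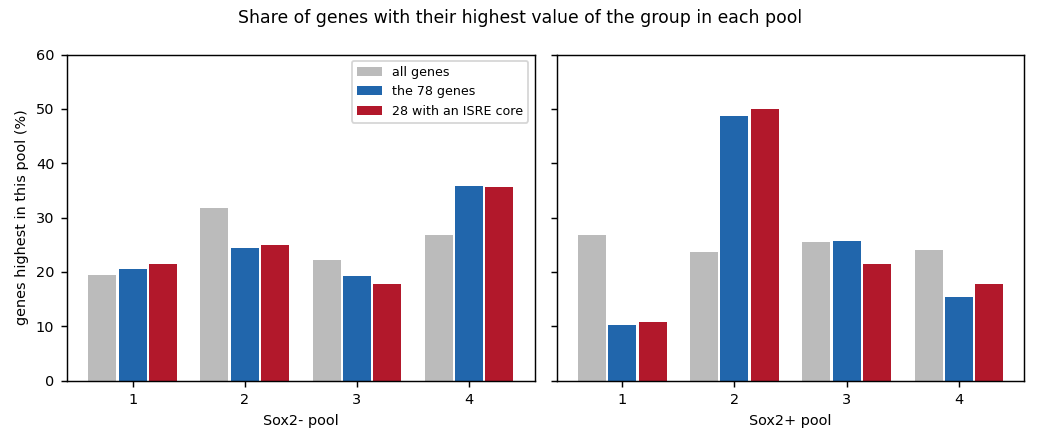
Share of genes (y axis, in percent) whose highest value within the fraction lies in each pool (x axis), for all 22180 genes, the 78 genes and the 28 of them with an ISRE core. Sox2-positive pool 2 holds the highest value of 48.7% of the 78 genes and of 23.6% of all genes.

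Markers of cells that express many of these genes were read in the same fit. Of microglia and macrophage markers 0 of 17 passed in limma (3 at an unadjusted p under 0.05), and their summed level was 9.79 to 9.91 in Sox2-positive and 9.76 to 9.96 in Sox2-negative pools (log2 of the summed linear values). For endothelial markers 0 of 14 passed (1 unadjusted), with 9.12 to 9.18 and 9.17 to 9.27. For dendritic cells 0 of 7 passed (1 unadjusted), with 8.39 to 8.45 and 8.40 to 8.49. Bst2 and Irf8 of the dendritic cell list are also among the 78 genes, so that list is not separate from them. Of pericyte markers 2 of 9 were higher, Cspg4, which oligodendrocyte progenitors also express, and Rgs5 (log2 difference 0.37, adjusted p = 0.0174), with 9.52 to 9.74 and 9.17 to 9.34. Below the dim guide lay 13 of the 17 microglia, 11 of the 14 endothelial and 5 of the 7 dendritic cell markers, so these sums are largely dim signal and could show little difference. All 8 oligodendrocyte progenitor markers were higher (12.4 to 12.9 and 9.67 to 9.93), as were 7 of 9 astrocyte markers (11.6 to 12.3 and 9.71 to 10.2). All 9 granule neuron progenitor markers were lower (11.3 to 11.6 and 12.3 to 12.6). The 8 oligodendrocyte progenitor and 7 of 9 astrocyte markers thus were higher, as were Stat3, Lifr, Il6st, Ifnar2 and Ifi27, while 0 of 17 microglia markers passed. Granule neuron progenitor markers differed in the same direction as Ifi205, Ifitm2 and Ifna1. All genes called higher in a single contrast share a direction, and this does not show that such genes vary together from pool to pool. The part of these cell types in the differences was not tested.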

How the data were processed

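The authors deposited 1 log2 value per probe set and array, a scale inferred from the range of 2.51 to 13.6. The submitters' processing notes name RMA and Expression Console 1.2.0.20. RMA removes any difference in total RNA and compresses differences of dim genes. Genome build and probe annotation version: not given in the sources used here. Of 41345 probe sets, 23521 had 1 gene symbol; the brightest was taken for the 1082 genes with several, giving 22180 genes, with no filter on dim genes. The test was two-sided, from lmFit and eBayes of limma (version 3.58.1, R 4.3.3) with fraction as the only term and Benjamini-Hochberg adjustment over all genes.

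The members and lists were chosen with earlier results of these data known. The genes named are those members past the test or with groups apart, the largest of each other role, 7 set signalling genes, and up to 4 of each pathway list; others are named as background or examples, after their values were seen. Arrays of equal pool number deviated together, each pair above 0.1 (correlation of deviations 0.114 to 0.241, where unequal numbers reached 0.161), though the labels do not say so, and the number was a block in an alternative. Arrays correlated at 0.973 to 0.987 within and 0.942 to 0.968 between fractions, and their number limits the precision.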

Additional observations from a re-analysis of the deposited data

Results flagged for a closer look

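In 6 of 62 groups of 4 pools examined, 1 pool lay far from the other 3 by the size of its gap relative to the range, and chance alone flags about 1 in 20 such groups. Sox2-negative pool 2 stood high for Ifnar2 (7.48, others 7.22 to 7.25) and low for Irf2bpl (4.52, others 5.22 to 5.24). Sox2-negative pool 3 stood low for Ifitm2 (5.15, others 5.40 to 5.45). Sox2-negative pool 1 stood low for Lifr (5.38, others 5.55 to 5.56) and for Tlr3 (4.61, others 4.89 to 4.92). Sox2-positive pool 4 stood low for Irf2bpl (5.35, others 5.53 to 5.54).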

How the results depend on the processing

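Stat3, Ifi27, Ifitm3, Ifnar2, Stat5b, Lifr, Il6st, Osmr, Cntfr, Jak2, Tlr3, Trim25 and Cxcl10 kept their direction and call in every alternative that measured them: a replicate block, quantile normalization, the mean of probe sets, dim genes left out, array weights, a variance trend and each pool left out. The 7 genes higher became 5 to 7, and 5 with dim genes left out, where 27 of the 78 were tested. The 2 lower became 1 with quantile normalization, 1 with dim genes left out, and 0 to 2 without single pools. The 1 pathway gene lower became 3 with the replicate block, 3 with dim genes left out, 3 with array weights, and 0 to 2 without single pools. The replicate block kept the counts of the 78 genes at 7 and 2 and changed no call among the genes named by the rule. Irf2 passed with dim genes left out and without Sox2-positive pool 4 (adjusted p = 0.0321 at the lowest). Without single pools the Isg15 difference ran from -0.17 to 0.044 (turned without Sox2-positive pool 1) and that of Stat2 from -0.093 to 0.0084 (turned without Sox2-positive pool 3); the causes were not tested. Most of these genes are dim, where values may be largely background and real differences are compressed.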
